A study of Parachlorella kessleri with 6 samples.

Results

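Protein kinases are the enzymes that move a phosphate from ATP onto serine, threonine or tyrosine residues of other proteins. The set described here holds 201 of the 22972 rows of an RNA-seq count table of the single-celled green alga Parachlorella kessleri, a relative of Chlorella. A row was a member if its annotation listed the Pfam domain Pkinase or Pkinase_Tyr. Rows were left out if they also carried a PAS, EF-hand, guanylate cyclase or cyclic nucleotide binding domain, or if their best Swiss-Prot match was named as a MAP kinase, SNF1 or SNF1-related kinase, calcium-dependent, calmodulin-dependent or CBL-interacting kinase, cyclin-dependent kinase or cell division control protein. That left 201 of 241 kinase-domain rows, with 40 left out: 11 carried one of those domains and 33 one of those names, some both. Cells had been grown for 2 days either under control conditions or under salt stress, with 3 libraries of total RNA per condition, named replicates 1 to 3. Neither strain nor salt concentration is given in the sources used here, and the labels do not say whether the replicates were separate cultures. The p-values below thus cover the scatter among these libraries alone, and that scatter could be technical.

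In plants and green algae, kinases pass signals from receptors at the cell surface, from the endoplasmic reticulum and from the thylakoid membrane of the chloroplast to their targets. SnRK2 kinases are known from land plants for their activation by osmotic stress and abscisic acid, Raf-like kinases such as CTR1 act in plant hormone signalling, and STN7 and STN8 phosphorylate light-harvesting and photosystem II proteins. Transcript level is only one of the controls on a kinase, since most are switched on and off by phosphorylation or by a partner protein, which RNA-seq does not measure.

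Rows are called by the name of their closest protein match in another species, which is no evidence of what they do in P. kessleri. Of the 201 members, 113 had a Swiss-Prot match placed in a kinase class by its name, 22 a match named for another function, and 66 no Swiss-Prot match. The best match in the NCBI protein database was in the green alga Chlorella variabilis for 97 members, and 30 had none. Kinase matches ranged from 26 to 453 residues with a median of 186, and 35 members had fewer than 100 residues of kinase domain, so part of the matches cover only a stretch of the domain. Domains other than the kinase were listed on another reading frame of the assembled transcript in 53 members, and the Swiss-Prot name of a row can belong to that other frame. The rows are those of a Trinity assembly, and related or overlapping rows can split reads between them. The 195 tested members fell into 164 Trinity clusters (identifiers that differ only in their last part). Of these 195, 20 were the only row of their cluster.

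Library totals ranged from 16460455 to 24065705 counts, so that 1 count was worth 0.0436 to 0.0629 CPM (counts divided by library size). The first principal component (83.0% of the variance) separated the conditions. On the second (10.4%), the replicate 1 libraries of control (52.7) and salt (19.6) stood apart, with all 4 others below 0. Among the kinases, 19 tested members had a control replicate 1 value more than 2-fold below both other control libraries, and 0 had one more than 2-fold above. Values are therefore given for every library, in the order of replicates 1, 2 and 3, as CPM scaled by TMM factors. Such values are shares of a library, and a change in RNA per cell or in the number of cells cannot be told apart from them.

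More kinase rows were lower than higher in salt. Of the 201 members, 195 had enough counts to be tested with edgeR's quasi-likelihood test. At a Benjamini-Hochberg adjusted p under 0.05 over all 11438 genes tested, 39 rose (20%, against 29.1% of all genes tested), 99 fell (50.8%, against 28.7%) and 57 were not called. The share called in either direction was 70.8%, against 57.8% of all genes. With a change of at least 2-fold, 12 members rose and 57 fell, against 15.9% and 17.7% of all genes. The median log2 fold change, salt against control, was -0.48 with quartiles of -1.11 and 0.28, beside 0.01 with quartiles of -0.72 and 0.68 over all genes tested. No test of the list as a whole was made. The 6 members not tested had at most 25 counts in total, and 1 of them had none.

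The direction did not rest on the replicate 1 libraries: with replicates 2 and 3 alone 46 members rose and 105 fell. Their median was then -0.39, beside 0.03 over all genes. Shares of all genes called are given here for the main fit only. Within same-numbered pairs of libraries the median log2 ratio of the members was -0.47, -0.42 and -0.48. The 3 control and 3 salt values did not overlap in 136 of the 138 called members. A call itself favours such separation, so this count is no further evidence. Over all genes tested, called or not, groups did not overlap in 66.7%, which is not a like comparison. With library totals as the scaling, the median of all genes moved from 0.01 to 0.20. The members' median then became -0.29, with 45 raised and 81 lowered, so the fall of the members relative to all genes remained while its size against 0 depended on the scaling. In the authors' deposited table, 69 of the 201 members were marked significant (34.3%, against 18.7% of all rows), 13 up and 56 down, and all 69 were called in the same direction by edgeR. These shares are not a like comparison. Only 11438 of all 22972 rows had enough counts for edgeR's test, against 195 of the 201 members.

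**Figure D1:**
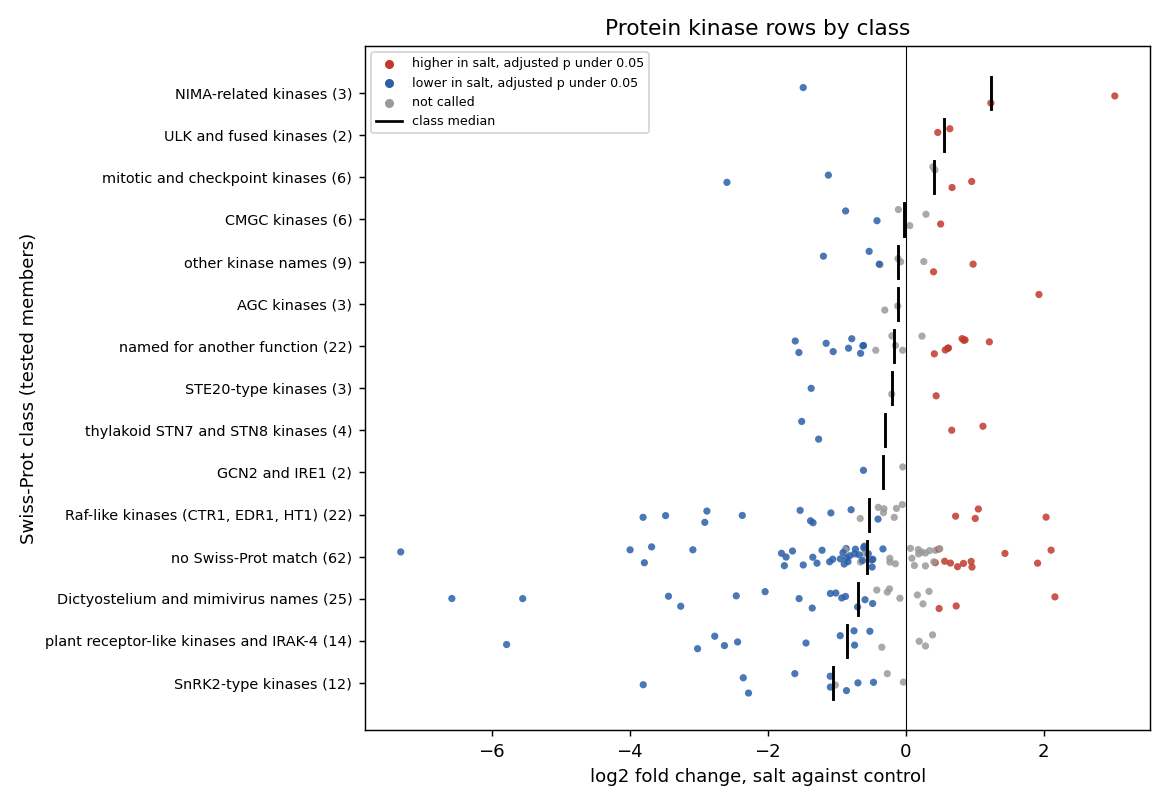
Log2 fold change (salt against control) of the 195 tested kinase rows, one point per row, by class of the Swiss-Prot match, with the number of tested rows in parentheses, the class median as a black bar and colour for the edgeR call. The SnRK2-type class, the plant receptor-like class and the class of GCN2 and IRE1 hold no raised row, and most other classes hold both raised and lowered rows.

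Counts are given by class, some of only a few rows, and no test compared the classes. Of all tested members 20% rose and 50.8% fell, and of all genes tested 29.1% and 28.7%. None of the 12 SnRK2-type rows and none of the 14 plant receptor-like rows rose, while 9 (75%) and 10 (71.4%) of them fell. The class of GCN2 and IRE1, with 2 rows, also held no raised row. Shares near those of all members were found for the Raf-like class (18.2% rose and 50% fell). The same held for rows with no Swiss-Prot match (17.7% and 53.2%). Raised and lowered rows stood side by side among the thylakoid kinases (2 and 2 of 4), the NIMA-related kinases (2 and 1 of 3) and the rows matched to proteins named for another function (8 and 9 of 22). In all, 44 tested members are named by a rule given with the processing, and any further row was picked with its values in view.

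The 12 SnRK2-type rows had best matches to the rice osmotic stress and abscisic acid-activated kinases SAPK1 to SAPK10 or to an abscisic acid-inducible kinase. Their median log2 fold change was -1.06, and 6 of the 9 rows that fell did so by at least 2-fold. The largest fall was that of a SAPK10-named row, TRINITY_DN5536_c1_g2, with a kinase domain at residues 58 to 317, which had 218, 171 and 176 CPM in control and 14.5, 12.2 and 13.7 CPM in salt. Every salt value lay far below every control value (log2 fold change -3.81 with an SE of 0.15, edgeR adjusted p = 1.84e-05). This row held 40.3% of the counts of its 11-row cluster in control and 2.46% in salt. The largest other row of that cluster matched an oligosaccharyltransferase subunit and not a kinase, and rose, and the summed cluster had a log2 fold change of 0.22 and was not called (adjusted p = 0.149).

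A SAPK6-named row, TRINITY_DN5747_c2_g2, had the highest FPKM of all members (length-scaled level, 1065 ± 301 FPKM in control and 153 ± 49.6 FPKM in salt, mean ± SD, n = 3 each). Its effective length, derived from counts and FPKM, was only 186 bases, a length at which FPKM is uncertain. It had 155, 155 and 173 CPM in control and 26.2, 33.1 and 35.1 CPM in salt. The groups were again far apart (log2 fold change -2.36 with an SE of 0.14, edgeR adjusted p = 4.19e-05). The next row of its cluster, a kinase named SRK2D that the rule left out for its name, had a log2 fold change of 0.03 and was not called.

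Other SnRK2-type rows fell by less. A second SAPK10-named row, TRINITY_DN4595_c0_g1, had 119, 83.8 and 90.5 CPM in control and 32.6, 31.0 and 32.4 CPM in salt (log2 fold change -1.61 with an SE of 0.15, edgeR adjusted p = 0.000206), and a row of the same cluster matched to SAPK4, TRINITY_DN4595_c0_g3, had 213, 172 and 171 CPM in control and 120.2, 88.1 and 98.1 CPM in salt (log2 fold change -0.86 with an SE of 0.16, edgeR adjusted p = 0.00328). The closest match of the latter in the alga Coccomyxa is a protein named sulfur stress regulator. A SAPK10-named row that was high in control replicate 1, TRINITY_DN5577_c2_g1, had 523, 281 and 305 CPM in control and 187, 136 and 197 CPM in salt (log2 fold change -1.10 with an SE of 0.27, edgeR adjusted p = 0.012). In these 3 rows all salt libraries lay below all control libraries.

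The remaining SnRK2-type rows that fell were a SAPK7-named row, TRINITY_DN5405_c0_g1 (log2 fold change -1.09), a SAPK1-named row, TRINITY_DN3023_c0_g1 (-0.69), the abscisic acid-inducible kinase row, TRINITY_DN5791_c1_g3 (-0.47), and a scarce SAPK10-named row, TRINITY_DN5745_c2_g9 (-2.28, from a mean of 5.70 CPM). The 3 rows that were not called had log2 fold changes of -1.02 (SAPK5, at a mean of 2.96 CPM in control), -0.27 (SAPK7) and -0.04 (SAPK4). In the last, TRINITY_DN5745_c2_g3, the 3 salt values of 83.3, 93.8 and 87.5 CPM lay within the control values of 108, 80.7 and 82.2 CPM. With library totals as the scaling 8 of the 12 rows fell and 0 rose, and with replicates 2 and 3 alone 10 fell and 0 rose.

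**Figure D2:**
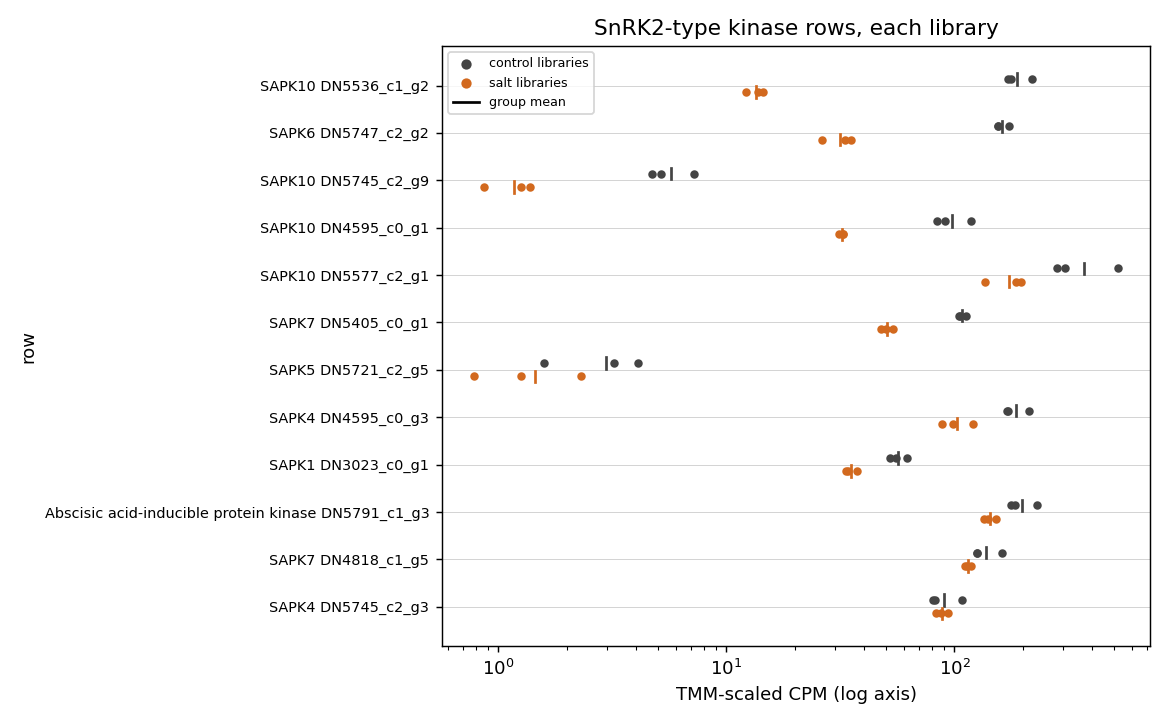
TMM-scaled CPM (log axis) of the 12 SnRK2-type kinase rows in each of the 3 control and 3 salt libraries, with group means as vertical bars, ordered by fold change. The control and salt points are separate in the 9 rows that fell and overlap in the SAPK5 row and in the lowest SAPK4 row.

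The KEGG label SNRK2 was carried by 19 members, 18 of them tested, of which 0 rose and 14 fell (median -0.94). Outside the SnRK2-type class this label added 6 tested rows, of which 5 fell. The most abundant of these by FPKM was TRINITY_DN4183_c0_g2, a row with no Swiss-Prot match and 1035, 558 and 584 CPM in control and 491, 403 and 419 CPM in salt (log2 fold change -0.73 with an SE of 0.26, edgeR adjusted p = 0.0456). Control replicate 1 stood highest in it and the margin was small: without salt replicate 1, 2 or 3 in turn the row was no longer called, nor was it with library totals as the scaling (-0.53, edgeR adjusted p = 0.0655) or with no filter on low counts (-0.69, edgeR adjusted p = 0.0529), and with replicates 2 and 3 alone its log2 fold change was -0.47. A row with a sharper fall, TRINITY_DN5106_c0_g1, had the KEGG label SNRK2 and a Chlamydomonas match named Snf1-like kinase, while its Swiss-Prot match was the checkpoint kinase Chk1 of Drosophila. It had 518, 560.4 and 585 CPM in control and 117, 71.1 and 88.1 CPM in salt (log2 fold change -2.59 with an SE of 0.20, edgeR adjusted p = 9.55e-05). Of the kinase rows that the rule left out, 3 also had the KEGG label SNRK2, and of these 0 rose and 1 fell, so the fall was not shared by every SNRK2-labelled row of the table.

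The 14 rows matched to plant receptor-like kinases, the cell-surface kinases with an outer domain such as leucine-rich repeats or a lectin, and to IRAK-4, an animal kinase of innate immune signalling, had a median of -0.85. Of these, 10 fell, 6 of them by at least 2-fold, and 0 rose. An IRAK-4-named row, TRINITY_DN5469_c1_g3, carried a leucine-rich repeat N-terminal domain at residues 34 to 76 and the kinase domain at residues 623 to 855. It had 505, 399 and 432 CPM in control and 76.0, 67.4 and 72.7 CPM in salt (log2 fold change -2.63 with an SE of 0.14, edgeR adjusted p = 2.65e-05). A row matched to a lectin-domain receptor kinase, TRINITY_DN6027_c0_g1, had 184, 276 and 286 CPM in control and 31.5, 34.2 and 43.8 CPM in salt (log2 fold change -2.77 with an SE of 0.22, edgeR adjusted p = 0.000104). Control and salt values of both rows were far apart, and both were among the 8 largest falls at or above the median level of all genes.

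The steepest fall of the class was in a row matched to TDR, a leucine-rich repeat receptor of vascular development in Arabidopsis, TRINITY_DN3707_c0_g1, with 33.3, 67.2 and 80.9 CPM in control and 0.409, 1.06 and 1.79 CPM in salt (log2 fold change -5.79 with an SE of 0.56, edgeR adjusted p = 0.000211). Control replicate 1 was more than 2-fold below the other controls in this row, and also in the row matched to ERL1, a receptor of stomatal patterning in Arabidopsis, TRINITY_DN4555_c2_g2. The latter had 68.9, 143 and 167 CPM in control and 22.1, 20.9 and 26.9 CPM in salt (log2 fold change -2.44 with an SE of 0.33, edgeR adjusted p = 0.000822). In both rows the lowest control value still lay above the highest salt value, and with replicates 2 and 3 alone the log2 fold changes were -5.68 and -2.69. A row matched to PTI1, a cytoplasmic kinase of plant immunity, TRINITY_DN4744_c3_g2, went from 16.2 ± 2.46 to 2.00 ± 0.375 CPM (mean ± SD, n = 3 each), and one matched to a G-type lectin receptor kinase, TRINITY_DN4841_c1_g2, from 103 ± 11.9 to 37.7 ± 2.91 CPM. The 4 rows not called had log2 fold changes between -0.35 and 0.39. The highest of them, a leucine-rich repeat receptor-like row, TRINITY_DN4257_c0_g1, had 70.1, 109 and 103 CPM in control and 118, 124 and 127 CPM in salt. With replicates 2 and 3 alone, 1 row of this class was called as raised and 11 as lowered.

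Leucine-rich repeat domains were listed on any reading frame of 12 members, of which 8 fell and 0 rose. On the reading frame of the kinase itself they were found in 7, of which 5 fell and 0 rose (median -0.75). One of the 7, TRINITY_DN5868_c1_g2, with no Swiss-Prot match, had the domain order of a plant receptor kinase: a leucine-rich repeat N-terminal domain at residues 30 to 68, repeats at residues 97 to 155 and the kinase at residues 878 to 1114. This row had 424, 375 and 355 CPM in control and 273, 275 and 270.1 CPM in salt (log2 fold change -0.50 with an SE of 0.12, edgeR adjusted p = 0.00933).

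Raf-like kinases, named for their likeness to animal Raf, were represented by 22 tested rows: 16 matched to CTR1, the Arabidopsis repressor of ethylene signalling, 4 to EDR1, a regulator of defence responses, and 2 to HT1, a kinase of the stomatal carbon dioxide response. Together 4 rose and 11 fell, with a median of -0.53. All 4 rises were among the CTR1-named rows, where 7 fell and 5 were not called. All 4 EDR1-named rows fell, by log2 fold changes of -3.48 to -0.40, and neither HT1-named row was called (-0.40 and -0.32). The smallest of these EDR1 falls, in TRINITY_DN5907_c2_g4, was not called with library totals as the scaling (-0.22, edgeR adjusted p = 0.228).

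The CTR1-named row with the smallest p, TRINITY_DN5010_c2_g3, had 334, 359 and 358 CPM in control and 123, 117 and 124 CPM in salt (log2 fold change -1.53 with an SE of 0.10, edgeR adjusted p = 6.14e-05). The most abundant CTR1-named row by FPKM, TRINITY_DN5907_c2_g7, went the other way, with 16.3, 19.4 and 20.8 CPM in control and 36.8, 40.0 and 36.5 CPM in salt (log2 fold change 1.01 with an SE of 0.14, edgeR adjusted p = 0.000866). It is a short row with an effective length of 318 bases, and it held 6.23% of its cluster's counts in control and 16.6% in salt. The summed cluster, which held 3 other kinase members, fell (log2 fold change -0.42, adjusted p = 0.00729). A further CTR1-named row, TRINITY_DN5969_c0_g2, had 173, 290.0 and 281 CPM in control and 133, 112 and 105 CPM in salt (log2 fold change -1.09 with an SE of 0.22, edgeR adjusted p = 0.00477), with control replicate 1 closer to the salt libraries than the other controls were.

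Another 2 CTR1-named rows rose by at least 2-fold, and each made up nearly all the counts of its cluster. The first, TRINITY_DN4585_c0_g1, had 12.4, 12.5 and 12.3 CPM in control and 24.9, 24.9 and 27.2 CPM in salt (log2 fold change 1.05 with an SE of 0.13, edgeR adjusted p = 0.000492). The second, TRINITY_DN5085_c2_g1, had 3.93, 13.3 and 13.7 CPM in control and 34.4, 48.3 and 43.4 CPM in salt (log2 fold change 2.03 with an SE of 0.44, edgeR adjusted p = 0.0067), and its control replicate 1 lay more than 2-fold below the other controls. With replicates 2 and 3 alone its log2 fold change was 1.78. Of the CTR1- and EDR1-named rows of 1 cluster, DN5821_c0, the EDR1-named TRINITY_DN5821_c0_g2 had 36.9, 86.6 and 87.8 CPM in control and 5.31, 6.64 and 6.93 CPM in salt (log2 fold change -3.48 with an SE of 0.36, edgeR adjusted p = 0.000285). Here too control replicate 1 was more than 2-fold below the other controls (log2 fold change -3.67 with replicates 2 and 3 alone), and all 4 kinase members of the cluster fell.

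Best matches in the slime mould Dictyostelium discoideum, and for 2 rows in an amoeba mimivirus, made up the largest class with kinase names, 25 rows, of which 3 rose and 15 fell (median -0.70). Of the 11 rows whose match has only a Dictyostelium locus name, 0 rose and 7 fell. The largest fall in the class was in a row matched to the RasGEF domain-containing kinase X, TRINITY_DN4841_c1_g7, whose reading frame held a subtilisin-type peptidase domain at residues 452 to 712 and the kinase at residues 829 to 1061. It had 77.3, 84.7 and 93.8 CPM in control and 0.681, 1.11 and 0.871 CPM in salt. All 3 salt values were near 1 CPM (log2 fold change -6.58 with an SE of 0.21, edgeR adjusted p = 1.5e-05).

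Rows with locus names only fell too, as in TRINITY_DN5407_c0_g1, with 394, 371 and 390.4 CPM in control and 68.4, 67.6 and 74.3 CPM in salt (log2 fold change -2.46 with an SE of 0.11, edgeR adjusted p = 1.93e-05), and in TRINITY_DN5701_c0_g2, with 235, 238 and 266 CPM in control and 56.6, 58.7 and 64.5 CPM in salt (log2 fold change -2.04 with an SE of 0.11, edgeR adjusted p = 3.33e-05). In contrast, a row matched to the Dictyostelium cyclic GMP-binding protein C, a multidomain kinase of chemotaxis signalling, TRINITY_DN5499_c4_g1, had the largest rise among members at or above the median level. It had 71.6, 67.4 and 65.3 CPM in control and 300.3, 301 and 313 CPM in salt, with no overlap and little spread within either group (log2 fold change 2.16 with an SE of 0.10, edgeR adjusted p = 2.3e-05). It held 88.3% of its cluster's counts in control and 95.3% in salt, and the summed cluster rose as well (2.04). A row matched to the mimivirus kinase R831, TRINITY_DN5221_c0_g1, was the most abundant of the class by FPKM. It had 429, 447 and 482 CPM in control and 656, 645 and 596 CPM in salt (log2 fold change 0.48 with an SE of 0.12, edgeR adjusted p = 0.012), and its rise was no longer called without control replicate 2.

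The thylakoid kinases split within each name. STN7 phosphorylates light-harvesting antenna proteins in state transitions, and STN8 phosphorylates photosystem II core proteins. Of the 2 STN8-named rows, TRINITY_DN4736_c1_g1 had 399.8, 382 and 390.3 CPM in control and 139, 146 and 127 CPM in salt (log2 fold change -1.51 with an SE of 0.11, edgeR adjusted p = 7.62e-05). The other, TRINITY_DN4776_c3_g1, had 70.2, 84.2 and 76.8 CPM in control and 187, 158 and 157 CPM in salt (log2 fold change 1.12 with an SE of 0.12, edgeR adjusted p = 0.000378). Each accounted for all or nearly all of the counts of its cluster, and neither pair of groups overlapped. Both rows also listed a domain on another reading frame, DUF3228 in the first and Gal_Lectin in the second. The kinase match of the second covered only residues 1 to 67. Whether their reads come from the kinase was not tested. In FPKM, which allows a comparison between rows, the first went from 99.9 ± 8.03 to 35.9 ± 1.58 and the second from 29.3 ± 5.44 to 61.1 ± 7.78 (mean ± SD, n = 3 each), so the row with the higher level differed between the conditions.

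The STN7-named rows divided in the same manner. The more abundant, TRINITY_DN5489_c1_g1, had 437, 833 and 845 CPM in control and 319, 277 and 284 CPM in salt (log2 fold change -1.26 with an SE of 0.26, edgeR adjusted p = 0.0054), with control replicate 1 below the other controls but above every salt library, and with replicates 2 and 3 alone its log2 fold change was -1.57. The less abundant, TRINITY_DN4836_c0_g2, had 25.5, 25.7 and 27.8 CPM in control and 43.2, 41.6 and 40.4 CPM in salt (log2 fold change 0.67 with an SE of 0.11, edgeR adjusted p = 0.002). Even after its rise the latter reached only 12.4 ± 0.653 FPKM, beside 66.0 ± 4.67 FPKM for the lowered row in salt. The lowered row also listed the domain Lactamase_B on another reading frame, and which frame its reads come from was not tested.

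Kinases of mitosis and its checkpoints were mixed, with 2 rises and 2 falls among 6 tested rows. The steeper fall was in the Chk1-named row with the KEGG label SNRK2 described above, TRINITY_DN5106_c0_g1 (log2 fold change -2.59). WEE1 and Myt1 hold back entry into mitosis by phosphorylating cyclin-dependent kinases, and both rows rose. The WEE1-named row, TRINITY_DN3086_c0_g1, had 32.2, 31.0 and 24.7 CPM in control and 41.1, 47.1 and 51.9 CPM in salt (log2 fold change 0.67 with an SE of 0.15, edgeR adjusted p = 0.00848). The Myt1-named row, TRINITY_DN4688_c4_g3, had 34.1, 49.1 and 37.7 CPM in control and 48.1, 86.0 and 100.3 CPM in salt (log2 fold change 0.95 with an SE of 0.28, edgeR adjusted p = 0.024), and its lowest salt value lay below its highest control value. A row matched to MPS1, the spindle checkpoint kinase of yeast, TRINITY_DN5984_c2_g1, fell, with 218, 177 and 159 CPM in control and 67.4, 90.1 and 97.1 CPM in salt (log2 fold change -1.12 with an SE of 0.18, edgeR adjusted p = 0.00192). The WEE1, Myt1 and MPS1 rows also listed domains on another reading frame (Acetyltransf_1, SHNi-TPR and Mad3_BUB1_I among them). Which frame their reads come from was not tested. The aurora-type row, of the family that acts on spindle and chromosomes, and the tousled-like row, of a family acting on chromatin assembly, were not called (0.39 and 0.42), and 2 further aurora-named rows had too few counts to be tested.

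NIMA-related kinases act in mitosis and, in Chlamydomonas, at cilia. The Nek2-named row, TRINITY_DN4523_c4_g3, had 36.1, 41.3 and 38.4 CPM in control and 95.8, 83.5 and 93.0 CPM in salt (log2 fold change 1.23 with an SE of 0.11, edgeR adjusted p = 0.00018). It was a minor row of its cluster in control (11.7% of the counts, 31.8% in salt), and the summed cluster was not called (-0.22, adjusted p = 0.0545). A row with only the KEGG label NEK, TRINITY_DN4348_c0_g1, was alone in its cluster and had 71.4, 74.1 and 71.7 CPM in control and 137, 139 and 142 CPM in salt (log2 fold change 0.95 with an SE of 0.09, edgeR adjusted p = 0.000211). This row also listed FMO-like and further domains on another reading frame, and which frame its reads come from was not tested. The Nek1-named row, TRINITY_DN4110_c0_g1, fell, with 47.4, 25.2 and 29.6 CPM in control and 10.6, 12.7 and 13.2 CPM in salt (log2 fold change -1.49 with an SE of 0.26, edgeR adjusted p = 0.00246). The scarce Nek3-named row, TRINITY_DN3127_c0_g1, had the highest log2 fold change of all members (3.03), from 0.369 ± 0.257 to 3.06 ± 1.45 CPM.

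Of the 3 rows of the AGC class, 1 rose, the row matched to PDK1, which activates other kinases of the AGC family by phosphorylating their activation loop. This row, TRINITY_DN4592_c0_g4, had 28.0, 33.8 and 34.2 CPM in control and 107, 137 and 122 CPM in salt (log2 fold change 1.93 with an SE of 0.14, edgeR adjusted p = 8.1e-05). Its kinase match was in 2 stretches, at residues 3 to 62 and 203 to 303. The row held 12.5% of its cluster's counts in control and 40.7% in salt, and the summed cluster was not called (0.22, adjusted p = 0.0807). The other AGC rows were not called: the ribosomal S6 kinase row had a log2 fold change of -0.30, and the row matched to the blue-light receptor phototropin-2 had -0.12. By the rule for members the latter could list none of the PAS domains of that receptor.

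The class of CK2, GSK3, DYRK and splicing kinases held 6 rows, of which 1 rose and 2 fell. The row of the catalytic CK2 subunit, a constitutively active kinase, TRINITY_DN4819_c1_g1, rose with 93.9, 93.3 and 94.8 CPM in control and 129, 131 and 141 CPM in salt (log2 fold change 0.50 with an SE of 0.09, edgeR adjusted p = 0.00351). Its share of its cluster's counts went from 9.61% to 63.7%, and the summed cluster fell (-2.19, adjusted p = 0.00101). A row matched to prp4, a kinase of pre-mRNA splicing in fission yeast, TRINITY_DN5470_c0_g8, fell, with 389.9, 277 and 296 CPM in control and 182, 174 and 171 CPM in salt (log2 fold change -0.87 with an SE of 0.15, edgeR adjusted p = 0.00266), as did the row of YAK1, a yeast kinase that restrains growth (TRINITY_DN5310_c1_g2, -0.42). With library totals as the scaling the prp4 row was still called and the YAK1 row was not (-0.23, edgeR adjusted p = 0.208). The rows matched to GSK3 (shaggy), the SR protein kinase and dyrk2 were not called, with log2 fold changes of -0.11, 0.29 and 0.06.

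In the STE20 family, which signals to the cytoskeleton and to MAP kinases, the row matched to the severin kinase svkA, TRINITY_DN4402_c0_g1, fell with 388, 278 and 283 CPM in control and 115, 131 and 121 CPM in salt (log2 fold change -1.37 with an SE of 0.16, edgeR adjusted p = 0.000462). The dst1-named row rose (0.44) and the fray2-named row was not called (-0.20). A row with no Swiss-Prot match but the same KEGG label as the svkA row, TRINITY_DN5321_c0_g2, had 408, 299.8 and 319 CPM in control and 98.3, 97.5 and 98.7 CPM in salt, with nearly equal salt values (log2 fold change -1.80 with an SE of 0.15, edgeR adjusted p = 0.000106).

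Both rows of the ULK and fused family rose, though modestly. The ULK4-named row, TRINITY_DN4608_c1_g3, had 28.1, 38.9 and 34.7 CPM in control and 45.9, 53.9 and 58.5 CPM in salt (log2 fold change 0.64 with an SE of 0.16, edgeR adjusted p = 0.0134). It also listed the domain BTB on another reading frame, and which frame its reads come from was not tested. The row matched to TIO, a fused kinase of plant cell division, TRINITY_DN5012_c0_g1, had 18.0, 19.7 and 18.4 CPM in control and 22.9, 25.5 and 28.9 CPM in salt (log2 fold change 0.46 with an SE of 0.14, edgeR adjusted p = 0.0249), and lost its call in 4 of the 6 fits without 1 library. WNK kinases, known in animals for control of ion transport, were represented by a WNK2-named row, TRINITY_DN4673_c0_g3, which rose with 423, 603 and 628 CPM in control and 1111, 1018 and 1126 CPM in salt (log2 fold change 0.98 with an SE of 0.18, edgeR adjusted p = 0.00353). By FPKM it was the most abundant of the 8 largest rises among called members at or above the median level of all genes (191 over the 6 libraries).

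Of the kinases that sense unfolded or uncharged molecules, the IRE1-named row, TRINITY_DN4745_c0_g2, fell. IRE1 senses unfolded proteins in the endoplasmic reticulum and cuts mRNA with its nuclease domain. Its listed domains were in the order known for IRE1: a PQQ repeat at residues 56 to 85, the kinase at residues 886 to 1140 and the nuclease domain at residues 1148 to 1276. It had 129.8, 99.3 and 99.0 CPM in control and 63.1, 78.8 and 72.5 CPM in salt (log2 fold change -0.61 with an SE of 0.15, edgeR adjusted p = 0.0117), and with replicates 2 and 3 alone the log2 fold change was -0.38. The GCN2-named row, TRINITY_DN4743_c0_g1, whose namesake senses uncharged tRNA, was not called, with 8.15, 8.50 and 7.36 CPM in control and 8.04, 8.12 and 7.14 CPM in salt. A second GCN2-type row by its KEGG label, TRINITY_DN5639_c3_g2, had the kinase at residues 283 to 499 followed by the histidyl-tRNA synthetase-like domain at residues 674 to 904, and it too was not called (-0.15).

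Rows with no Swiss-Prot match formed the largest group, 66 rows with 62 tested, of which 11 rose and 33 fell (median -0.57). Of the strongest falls, 2 carried the KEGG label CPK, the calcium-dependent kinases. The rule for members left out every row with a listed EF-hand, so neither could list one. The first, TRINITY_DN5606_c1_g1, alone in its cluster, was the second most abundant member by FPKM (809 ± 157 FPKM in control and 57.3 ± 16.1 FPKM in salt, mean ± SD, n = 3 each). It had 1526, 1836 and 1857 CPM in control and 162, 104 and 111 CPM in salt (log2 fold change -3.79 with an SE of 0.23, edgeR adjusted p = 4.19e-05). The other, TRINITY_DN5634_c0_g4, had 195, 427 and 456 CPM in control and 18.7, 22.3 and 26.5 CPM in salt (log2 fold change -4.00 with an SE of 0.36, edgeR adjusted p = 0.000157), with control replicate 1 more than 2-fold below the other controls (-4.17 with replicates 2 and 3 alone). Altogether 9 tested members had a KEGG label of a family that the rule leaves out by Swiss-Prot name, and 1 rose and 6 fell. Without them 38 members rose and 93 fell.

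Rows with neither name nor label included the steepest fall of the whole set. This row, TRINITY_DN5701_c0_g1, held kinase domains at residues 2 to 152 and 242 to 403 and had 77.7, 70.2 and 78.3 CPM in control and 0.363, 0.646 and 0.392 CPM in salt (log2 fold change -7.32 with an SE of 0.23, edgeR adjusted p = 1.5e-05). It made up 23.4% of its cluster's counts in control and 0.766% in salt, and all 3 tested members of the cluster fell. Other unnamed rows that fell were TRINITY_DN4912_c2_g4, with 138, 115 and 117 CPM in control and 8.26, 11.6 and 8.89 CPM in salt (log2 fold change -3.68 with an SE of 0.18, edgeR adjusted p = 2.36e-05), and TRINITY_DN5025_c4_g1, with 316, 294 and 297 CPM in control and 43.2, 24.9 and 38.7 CPM in salt (log2 fold change -3.09 with an SE of 0.22, edgeR adjusted p = 7.14e-05). Of these, the cluster of the first was not called when summed (-0.38, adjusted p = 0.101), and that of the second fell (-3.11). Abundant unnamed rows with smaller falls were TRINITY_DN4914_c1_g3, from 315 ± 46.8 to 90.2 ± 9.68 FPKM, and TRINITY_DN5692_c0_g1, from 259.5 ± 12.1 to 157 ± 13.6 FPKM. The latter also listed the helicase domains DEAD and Helicase_C on another reading frame, and which frame its reads come from was not tested. The unnamed row with the largest rise at or above the median level, TRINITY_DN5792_c3_g1, had 15.4, 36.8 and 37.2 CPM in control and 78.2, 79.6 and 84.2 CPM in salt (log2 fold change 1.44 with an SE of 0.32, edgeR adjusted p = 0.00751), with control replicate 1 low (1.15 with replicates 2 and 3 alone), and its summed cluster was not called (-0.40, adjusted p = 0.0603). This row also listed the domain GAF on another reading frame, and which frame its reads come from was not tested.

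**Figure D3:**
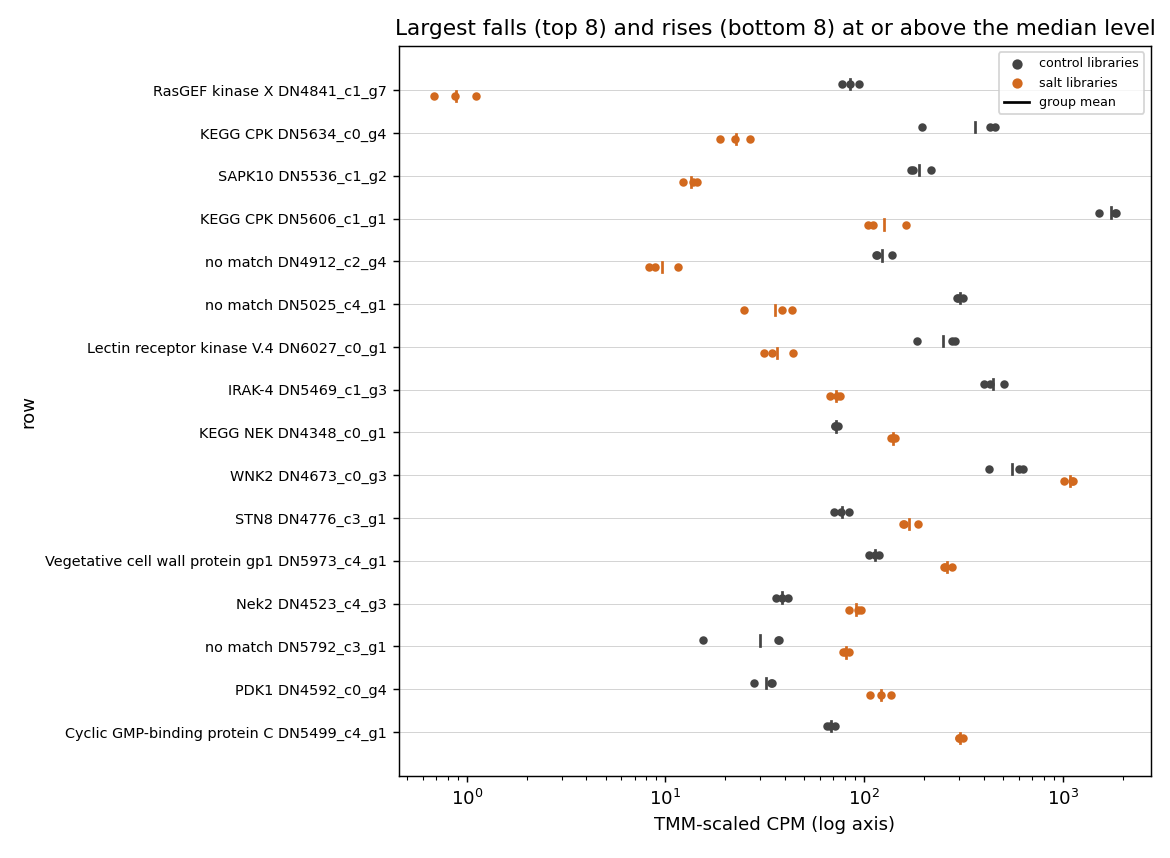
TMM-scaled CPM (log axis) of 16 rows in each of the 3 control and 3 salt libraries, with group means as vertical bars. The rows are the 8 largest falls and 8 largest rises among called members at or above the median level of all genes whose groups do not overlap. Control and salt points are thus separate in all 16 rows by selection. The log2 fold changes reach -6.58 among the falls and 2.16 among the rises.

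By level, the members at or above the members' median FPKM of 31.4 (98 rows) included 15 that rose and 59 that fell, and those under it (97 rows) 24 and 40. Median log2 fold changes were -0.62 and -0.24. By length of the kinase match, 8 rose and 18 fell of 32 tested rows under 100 residues, 15 and 37 of 74 rows of 100 residues up to 200, and 16 and 44 of 89 rows of 200 or more, so falls outnumbered rises among short and long matches alike.

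Grouped by further Pfam domains, the 119 tested members with the kinase domain alone included 21 that rose and 64 that fell (median -0.60). The 35 with a further domain on the kinase's own reading frame included 8 and 15 (-0.35), and the 53 with one on another frame 13 and 24 (-0.30), with 12 rows in both groups. Part of these further domains are not separate units: the Pfam families Kinase-like (12 members), APH (2) and Kdo (2) overlapped the kinase match in all of those rows. Without the members that carry a domain on another frame, 26 rose and 75 fell of 142, with a median of -0.54.

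PAN_4, a domain of secreted and receptor proteins, stood on the kinase's own reading frame in 3 members, of which 1 rose and 2 fell, and on another frame in TRINITY_DN4342_c0_g1, which also fell. Of the falls on the kinase's frame, that of TRINITY_DN5953_c0_g1 (-0.52) was not called with library totals as the scaling (-0.34, edgeR adjusted p = 0.0583). The other, TRINITY_DN5451_c3_g3, named Formin-like protein 16 by its match, had PAN_4 at residues 61 to 103 and the kinase at residues 511 to 596, with 202, 237 and 246 CPM in control and 88.7, 62.4 and 74.3 CPM in salt (log2 fold change -1.60 with an SE of 0.16, edgeR adjusted p = 0.000246). A GAF domain, a small-molecule binding fold, stood at residues 75 to 207 of TRINITY_DN4914_c1_g2, which fell with 280.2, 205 and 226 CPM in control and 111, 147 and 125 CPM in salt (log2 fold change -0.89 with an SE of 0.16, edgeR adjusted p = 0.00332); another frame of the same row carried RCC1 repeats. A row with ankyrin repeats at residues 1 to 100 and the kinase at residues 236 to 507, TRINITY_DN5981_c5_g1, rose with 173, 208 and 219 CPM in control and 266, 297 and 328 CPM in salt (log2 fold change 0.57 with an SE of 0.14, edgeR adjusted p = 0.0114), and its Swiss-Prot name, a drug resistance transporter, belongs to another frame.

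Single rows showed other combinations. The row with a NAF domain, the motif by which CBL-interacting kinases bind their calcium sensor, TRINITY_DN4753_c0_g3, had the kinase at residues 16 to 269 and NAF at residues 324 to 375. It fell, with 133, 122 and 128 CPM in control and 77.7, 82.0 and 83.8 CPM in salt (log2 fold change -0.66 with an SE of 0.10, edgeR adjusted p = 0.00123), and was named for a queuine tRNA-ribosyltransferase on another frame. The row with both a kinase (residues 107 to 369) and a PP2C phosphatase domain (residues 605 to 843), TRINITY_DN4634_c2_g2, had 39.8, 40.3 and 47.8 CPM in control and 31.6, 46.1 and 40.5 CPM in salt and was not called. A row with a C-terminal kinase extension and the KEGG label of NDR, a kinase of cell shape and division, TRINITY_DN4370_c3_g1, rose (log2 fold change 0.56 with an SE of 0.14, edgeR adjusted p = 0.0132). The row with WD40 repeats and the KEGG label VPS15, the regulatory kinase-like partner of the lipid kinase VPS34, TRINITY_DN5621_c0_g2, had 125, 649 and 671 CPM in control and 257, 187 and 342 CPM in salt. Its control replicate 1 lay below every salt library, and it was not called (-0.88, edgeR adjusted p = 0.232). With replicates 2 and 3 alone it fell (-1.31, edgeR adjusted p = 0.00749).

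The 22 rows whose best match was named for another function held 8 rises and 9 falls (median -0.18, and 0.01 with library totals as the scaling). Their largest rise, TRINITY_DN5973_c4_g1, matched to the Chlamydomonas cell wall protein gp1, had 119, 106 and 114 CPM in control and 256, 275 and 252 CPM in salt (log2 fold change 1.21 with an SE of 0.11, edgeR adjusted p = 0.000142). Rows matched to UPF0176 protein pc0378 and to multiple myeloma tumor-associated protein 2, TRINITY_DN4656_c0_g1 and TRINITY_DN5283_c1_g2, rose as well (log2 fold changes 0.84 and 0.82). The first went from 33.5% to 82.1% of its cluster's counts, and its summed cluster fell (-0.47, edgeR adjusted p = 0.0132), while the summed cluster of the second rose (0.80). A row matched to D-aspartate oxidase, TRINITY_DN5796_c1_g1, the most abundant of them by FPKM, fell from 202 ± 33.5 to 103 ± 8.74 FPKM, and its summed cluster was not called (-0.12, adjusted p = 0.266). Whether reads of such rows come from the kinase or from the other reading frame was not tested.

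Summed over Trinity clusters, 164 clusters held a tested member, and 24 of them rose and 85 fell, with a median of -0.38. The shares called over all clusters are not given here. Of the 138 called members, the cluster was called in the same direction for 104, was not called for 23 and was called in the opposite direction for 11. In 22 clusters with at least 2 tested members, 15 held lowered and no raised members, 0 held raised and no lowered members, 4 held both and 3 held no called member. Clusters pool kinase rows with other rows, as for the SAPK10 and oligosaccharyltransferase rows above, so an opposite sum does not show that the kinase transcript moved the other way. Where related rows share reads, the split between them is uncertain.

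**Figure D4:**
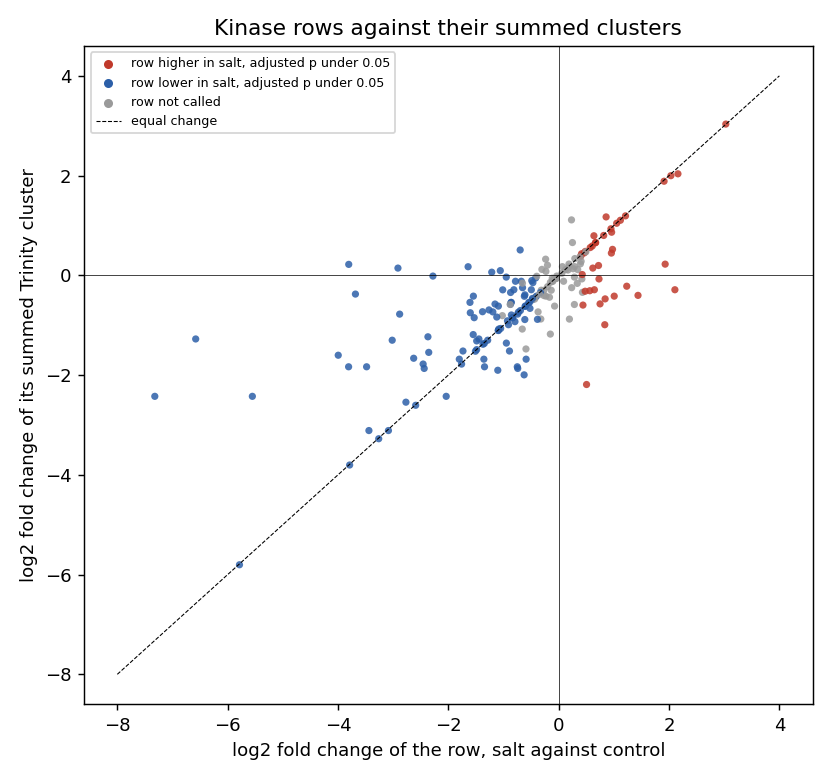
Log2 fold change (salt against control) of each of the 195 tested kinase rows (horizontal) against that of the summed counts of its Trinity cluster (vertical), coloured by the edgeR call of the row, with a dashed line at equal change. Most points lie in the lower left quadrant or near the line, and 11 called rows have a cluster called in the opposite direction.

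The 40 kinase rows that the rule left out were all tested, and 5 rose and 19 fell, with a median of -0.43, so their counts pointed the same way. No test compared the members with them. Of the list of kinase partners, 6 rows were found and tested: 1 rose and 0 fell. The row that rose, TRINITY_DN5542_c1_g3, matched LST8, a subunit of the TOR kinase complex, and had 77.6, 84.2 and 82.1 CPM in control and 121, 98.7 and 104 CPM in salt (log2 fold change 0.41 with an SE of 0.11, edgeR adjusted p = 0.0197). The row of raptor, another subunit of that complex, was not called (-0.18). The other 4 rows, all of 1 cluster, matched 14-3-3 proteins, which bind phosphorylated kinase targets, and none was called. In 14-3-3 row TRINITY_DN4153_c0_g5, the most abundant by FPKM (3174), the replicate 1 libraries of both conditions stood highest, at 26.7 CPM each, with 8.45 to 14.1 CPM in the other 4 libraries. The FPKM of this row was far above its CPM, so its length-scaled level rests on a very short effective length.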

How the data were processed

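Per the labels' protocols, TRIzol was used to extract total RNA. The labels name both Illumina and Proton sequencing, and which applies is not settled here. Per the file headers, each assembled gene has a raw read count for every library in the deposited table, beside FPKM values that the authors scaled by length and depth. The deposited log2 fold change, p-value and FDR columns are the authors', from a test not given in the sources used here, as are the aligner and counter. Only the significance and direction marks and the sign of the log2 fold change were taken from that comparison.

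Counts were tested with edgeR 4.0.16 in R 4.3.3: a quasi-likelihood fit with condition as the only term, TMM factors, filterByExpr at a minimum of 10 counts, and Benjamini-Hochberg adjustment at 0.05 over 11438 genes. On simulated counts for this comparison 65% of the 2-fold and 92% of the 4-fold changes put in were found by edgeR, and 10 of the calls among 11286 genes were false. The simulation changed a far smaller share of genes than the 57.8% called in the data. It drew on the trended dispersion and set no library apart as control replicate 1 was, so these rates need not hold for the data. A count of 0 allows up to 3 counts, or 0.131 to 0.189 CPM per library, for counting error only. Replicates of a group differed by more than sampling noise (chi-square per gene of 5.23 or more), so none was counted as a duplicate. The value of 5.23 was that of control replicates 2 and 3. Control replicate 1 gave 173 and 147 against these, and the salt pairs gave 33.4 to 58.5. Same-numbered libraries deviated from their group means together (correlations of 0.37, 0.16 and 0.22), which met the criterion of 0.1 for pairing. What a number stands for is not in the labels, and salt replicate 3 deviated more with control replicate 2 (0.29).

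The members, classes and partner list were chosen with earlier results of these data known, and the class patterns were refined after the table's descriptions were read. The rule for named genes took, among called members, the 8 steepest falls and 8 steepest rises whose groups do not overlap and whose mean CPM is at or above the median of all genes tested (39.4). It added, per class, the smallest p and the highest FPKM (both rows in classes of 2), per further domain in at least 2 members the smallest p, and the 5 highest FPKM. Alternatives were DESeq2 1.42.0 size factors and Wald test, upper-quartile factors, library totals, other filters, a 2-fold minimum, a replicate block, each library left out, replicates 2 and 3 alone, an effective length of at least 300 bases and summed Trinity clusters. Removal of members with domains on another reading frame, or with KEGG labels of left-out families, was added after seeing the data.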

Additional observations from a re-analysis of the deposited data

How the results depend on the processing

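In every alternative run on rows or clusters, more members fell than rose and their median was below 0. The median moved to -0.39 with upper-quartile factors, -0.29 with library totals, -0.43 with no filter, -0.39 with replicates 2 and 3 alone, -0.38 with summed clusters and -0.54 without members that carry a domain on another reading frame. With a 2-fold minimum 12 members rose and 57 fell. Summed clusters gave 24 rises among 164 clusters. Leaving out each library in turn gave 31 to 41 rises, 83 to 100 falls and medians of -0.52 to -0.42. The replicate block gave 41 rises, 98 falls and a median of -0.48. It kept 133 of the 138 calls and lost 5, none of them among the 44 named members. DESeq2's Wald test called 40 rises and 102 falls and kept all 138 calls.

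Over the single members named by rule, 684 recomputed values were counted as unchanged. Of the rest, 13 kept direction only and 6 turned direction, all 6 with summed clusters. These were TRINITY_DN5792_c3_g1 (-0.40), TRINITY_DN4523_c4_g3 (-0.22), TRINITY_DN5536_c1_g2 (0.22), TRINITY_DN5907_c2_g7 (-0.42), TRINITY_DN4819_c1_g1 (-2.19) and TRINITY_DN4656_c0_g1 (-0.47). For called members, unchanged means the same direction and call. Members not called were counted as unchanged also where a value near 0 changed sign. Thus TRINITY_DN4469_c2_g2 went from -0.12 to 0.08 with library totals. Likewise TRINITY_DN4743_c0_g1 went from -0.04 to 0.05 with upper-quartile factors and to 0.14 with library totals. By construction a summed cluster also counts rows that are not kinases. Depth limits the scarcest members: 2 tested members had under 10 counts in every salt library, and their fold changes rest on few reads.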
